A study of Mus musculus with 4 samples.

Results

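The circadian clock genes followed here are *Per1*, *Per2*, *Per3*, *Cry1*, *Cry2*, *Arntl*, *Clock*, *Nr1d1*, *Nr1d2* and *Dbp*, chosen by name as core genes of the clock. All 10 were found among the 36144 gene names of the deposited count table, and all 10 were among the 13979 genes kept for analysis, each of which had above 10 counts in 2 or more libraries. RNA was sequenced from mouse colonic organoids, which are cultures of colonic epithelium without the other tissues of the gut wall. There were 4 groups of 1 library each, namely untreated organoids at 48 h, organoids given 2 mM sodium butyrate for 48 h, untreated organoids at 72 h and organoids given 2 mM sodium butyrate for 72 h, all at passage 3. All groups grew in the same crypt medium with EGF, Noggin, R-spondin, the GSK3 inhibitor CHIR99021 and the ROCK inhibitor Y-27632. The labels give a wild-type male mouse aged 24 weeks, whereas the methods name Hes1-GFP reporter mice as the source of the organoids. Untreated cultures are labelled by day of collection, and day 2 and day 3 were taken as 48 h and 72 h. Cultures were collected 24 h apart, and the sources used here give neither the hour of collection nor a step that would set the clocks of the cells to a common phase. Samples 24 h apart cannot show the phase or the amplitude of a rhythm.

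The molecular clock is a loop of transcription that runs with a period near a day in most mammalian cells, the intestinal epithelium included. The proteins CLOCK and BMAL1, the product of *Arntl*, bind E-box sequences and switch on the *Per* and *Cry* genes, whose proteins return to the nucleus and block their own activators. The same pair switches on *Nr1d1* and *Nr1d2*, which encode the haem-binding repressors REV-ERB alpha and REV-ERB beta. These repress *Arntl* in competition with the ROR receptors at a shared DNA element. *Dbp* encodes a transcription factor of the output arm that binds D-box sequences.

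Promoter windows were read to show which members carry the DNA letters through which this loop is known to work. Of the members, 9 had at least 1 window in the RefSeq promoter table of build GRCm38.p6 and *Per2* had none, giving 13 windows of 250 bases before and 50 bases after a transcription start. On both strands, 4 motifs were searched. These were the E-box CACGTG, the D-box in the forms TTACATAA, TTACGTAA, TTATATAA and TTATGTAA, the REV-ERB and ROR half-site TAGGTCA, and the cAMP response element TGACGTCA, none of which overlapped another in these windows. A motif was found in 4 of the 13 windows. *Per1* and *Arntl* had 2 windows each, 1 of them with a motif, and *Per3* and *Cry1* had 1 window each. The *Per1* window with the motif lies inside the annotated gene, which starts at 69095217. In the lines below, the 250 bases before the start of *Per1* (chr11:69098699-69098948, plus strand), *Cry1* (chr10:85185055-85185304, minus strand) and *Per3* (chr4:151044666-151044915, minus strand) are given 5′ to 3′ on the strand of the gene, with E-boxes and D-boxes in capitals. For *Arntl*, 29 bases around its half-site (chr7:113207530-113207558, plus strand) are given with the half-site in capitals.
Per1: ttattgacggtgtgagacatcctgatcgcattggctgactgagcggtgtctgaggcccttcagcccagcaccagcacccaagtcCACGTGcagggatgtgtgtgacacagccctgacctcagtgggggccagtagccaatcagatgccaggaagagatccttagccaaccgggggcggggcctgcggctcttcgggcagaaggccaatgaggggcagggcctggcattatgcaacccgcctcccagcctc
Cry1: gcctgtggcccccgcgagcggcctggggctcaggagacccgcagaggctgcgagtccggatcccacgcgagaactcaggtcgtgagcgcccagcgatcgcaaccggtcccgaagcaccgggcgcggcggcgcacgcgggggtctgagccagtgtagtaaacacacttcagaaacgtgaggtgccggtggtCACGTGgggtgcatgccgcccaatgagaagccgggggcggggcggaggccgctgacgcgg
Per3: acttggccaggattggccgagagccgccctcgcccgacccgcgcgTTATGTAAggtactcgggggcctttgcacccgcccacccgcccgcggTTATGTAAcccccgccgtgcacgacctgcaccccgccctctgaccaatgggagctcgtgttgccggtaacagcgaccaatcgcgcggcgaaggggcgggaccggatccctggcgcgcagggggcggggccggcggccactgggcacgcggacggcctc
Arntl: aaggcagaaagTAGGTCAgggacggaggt

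*Per3* held a pair of D-boxes, whereas 1.59% of all 32851 windows in the table held any D-box. *Per1* and *Cry1* held 1 E-box each, a motif of 7.15% of all windows, and *Arntl* held the half-site of 2.61% of all windows. The cAMP response element, in 1.79% of all windows, was in none of the 13. A match here is a description of letters, and a window without a match says only that these letters are not in it.

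Library totals were between 20790225 and 24207840 counts, and mitochondrial genes took 14.1% to 18.4% of them. The counts of the members ran from 143 (*Dbp*, untreated, 72 h) to 1898 (*Clock*, untreated, 72 h). With 1 library per condition, no difference between a pair of conditions could be set against the spread between cultures. The 4 libraries do allow an additive fit of treatment and time with 1 residual degree of freedom, which takes any change of the butyrate difference between the times as error. In that fit, added after the data were seen, edgeR's quasi-likelihood test called 0 of 10 members for treatment and 0 of 10 for time at an adjusted p of 0.05, against 351 (2.51%) and 34 (0.243%) of all 13979 genes. At an unadjusted p of 0.05 it was 2 members for treatment, *Nr1d1* and *Per1*, beside 2237 (16.0%) of all genes, and 5 for time, *Nr1d1*, *Cry2*, *Per2*, *Arntl* and *Nr1d2*, beside 1402 (10.0%). The share for treatment was near that of all genes. The differences below are therefore descriptions of these libraries. Intervals are 95% intervals on the counts and cover counting error only, as PCR copies of a molecule were counted without molecular identifiers. Differences are on the log2 scale of counts divided by DESeq2 size factors, after adding a pseudocount of 1. The comparisons between treatments and between times are made from the same 4 libraries and are therefore not independent of each other.

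At 48 h, 8 of the 10 members were lower with butyrate, as were 51.3% of all genes, and 2, *Nr1d1* and *Dbp*, were higher, as were 48.7%. The median difference over the members was −0.25, beside −0.011 over all genes, and the members ranged from −0.70 (*Cry1*) to 0.76 (*Nr1d1*). A difference of at least 1.5-fold in either direction was seen in 2 of 10 members, *Cry1* (lower, as 8.90% of all genes were) and *Nr1d1* (higher, as 13.1% were), and in 22.0% of all genes, or 15.4% of the 11650 genes whose mean was 50 normalised counts or more. The members' share was thus close to that of all genes. The counting interval lay below 0 for 7 of 10 members, against 31.3% of all genes, and above 0 for 2, against 29.3%. Whether an interval excludes 0 depends on the counts, and the interval shares of all genes, here and below, were not matched on counts. The means of the members were 196 to 1721 normalised counts, whereas all genes include those with a mean below 50.

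At 72 h, 6 members were lower with butyrate (49.7% of all genes) and 4 were higher (50.3%), with a median of −0.12 beside 0.002 over all genes. None of the 10 reached 1.5-fold, which 18.0% of all genes and 11.0% of those with a mean of 50 or more did. The interval lay below 0 for 5 members, against 26.4% of all genes, and above 0 for 2, against 25.9%. *Per1*, *Per2*, *Cry2* and *Clock* were lower with butyrate beyond counting error at both times, and *Nr1d1* and *Dbp* were higher at both.

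**Figure D1:**
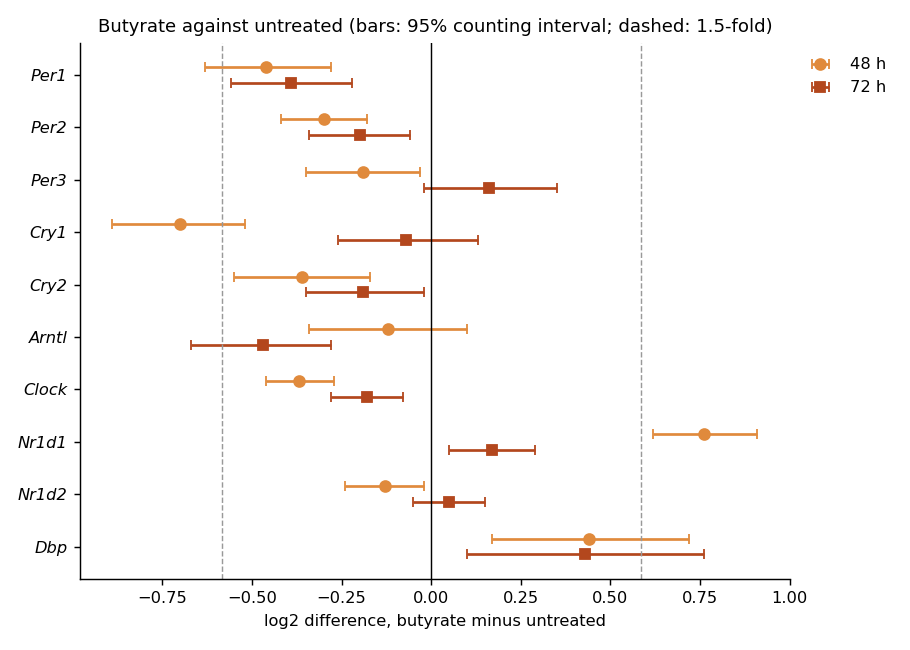
Log2 difference, butyrate minus untreated, of each clock gene at 48 h (circles) and 72 h (squares), with 95% counting intervals and dashed lines at 1.5-fold. *Nr1d1* (0.76) and *Cry1* (−0.70) pass the dashed lines at 48 h, and no gene passes them at 72 h.

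The activators CLOCK and BMAL1 are encoded by *Clock* and *Arntl*. *Clock*, on chromosome 5 from 76209868 to 76304792 of GRCm38, minus strand, had normalised counts of 1889.6 (untreated) and 1466 (butyrate) in the 48 h pair, then 1874 and 1654 in the 72 h pair. The untreated libraries differed by less than counting error, and both butyrate libraries were below them. With butyrate *Clock* was lower at 48 h by −0.37 (−0.46 to −0.27), and at 72 h by −0.18 (−0.28 to −0.08). *Clock* had the smallest span over the 4 libraries of any member, 0.37 on the log2 scale. *Arntl*, on chromosome 7 from 113207465 to 113314126, plus strand, had normalised counts of 349.7 (untreated) and 321 (butyrate) in the 48 h pair, then 559.8 and 403 in the 72 h pair. The untreated library at 72 h stood above the others, and neighbours among the other 3 libraries did not differ beyond counting error, though the butyrate libraries at 72 h and 48 h did. With butyrate *Arntl* differed by −0.12 (−0.34 to 0.10) at 48 h and −0.47 (−0.67 to −0.28) at 72 h.

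Among the repressors, the *Per* genes kept different orders. *Per1*, on chromosome 11 from 69095217 to 69109960, plus strand, responds quickly to hormonal and cAMP signals in many tissues. Its normalised counts were 619 (untreated) and 451 (butyrate) in the 48 h pair, then 690.2 and 528 in the 72 h pair. Both butyrate libraries were below both untreated libraries, with differences of −0.46 (−0.63 to −0.28) and −0.39 (−0.56 to −0.22). *Per2*, on chromosome 1 from 91415982 to 91459324, minus strand, is a core repressor whose loss disturbs rhythms in mice. It had 1243 (untreated) and 1009.8 (butyrate) in the 48 h pair, then 912 and 796 in the 72 h pair. Its 4 libraries all differed from their neighbours beyond counting error, with both 48 h libraries above both 72 h libraries. The butyrate differences were −0.30 (−0.42 to −0.18) and −0.20 (−0.34 to −0.06).

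*Per3*, on chromosome 4 from 151003652 to 151044665, minus strand, is regarded as less needed for rhythm than its relatives. It had normalised counts of 664 (untreated) and 581 (butyrate) in the 48 h pair, then 461 and 516 in the 72 h pair. Its sign with butyrate turned from −0.19 (−0.35 to −0.03) to 0.16 (−0.02 to 0.35), where the second interval held 0. The difference between these differences was 0.35 (0.11 to 0.60) by counting error alone.

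The cryptochromes *Cry1* and *Cry2* encode the strongest repressors of CLOCK and BMAL1. *Cry1*, on chromosome 10 from 85131700 to 85185064, minus strand, had normalised counts of 588 (untreated) and 361 (butyrate) in the 48 h pair, then 468 and 447 in the 72 h pair. The butyrate library at 48 h was the lowest and the untreated library at 48 h the highest, while the 72 h libraries could not be told apart. *Cry1* was lower with butyrate by −0.70 (−0.89 to −0.52) at 48 h, a fold of 0.615, and differed by −0.07 (−0.26 to 0.13) at 72 h. The change in the butyrate difference from 48 h to 72 h, 0.64 (0.37 to 0.90), was the highest of the 10 members. *Cry2*, on chromosome 2 from 92403646 to 92434043, minus strand, had 491 (untreated) and 383 (butyrate) in the 48 h pair, then 648 and 569 in the 72 h pair. The 72 h libraries were both above the 48 h libraries, and the butyrate library was the lower one at each time, by −0.36 (−0.55 to −0.17) and −0.19 (−0.35 to −0.02).

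**Figure D2:**
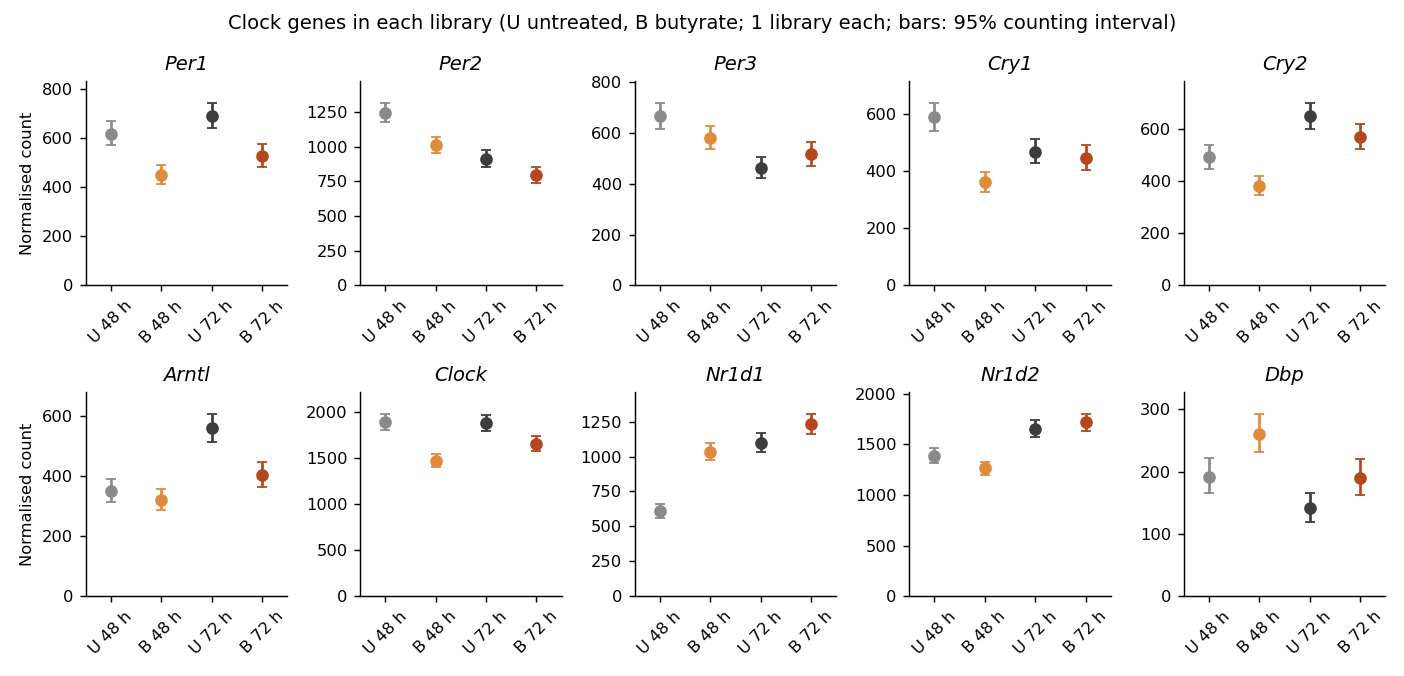
Normalised counts of each clock gene (vertical axis, from 0) in the 4 libraries, untreated (U) and butyrate (B) at 48 h and 72 h; points are single libraries and bars 95% counting intervals. *Nr1d1* is lowest in the untreated library at 48 h (608), *Arntl* is highest in the untreated library at 72 h (559.8), and *Dbp* is highest in the butyrate library at 48 h (261).

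The REV-ERB genes had unlike patterns. *Nr1d1*, on chromosome 11 from 98767932 to 98775333, minus strand, had normalised counts of 608 (untreated) and 1033 (butyrate) in the 48 h pair, then 1099 and 1233 in the 72 h pair. The untreated library at 48 h was alone at the low end, and the other 3 libraries lay between 1033 and 1233. At 48 h *Nr1d1* was higher with butyrate by 0.76 (0.62 to 0.91), a fold of 1.70, and at 72 h by 0.17 (0.05 to 0.29). *Nr1d1* had the widest span over the libraries of any member, 1.02. *Nr1d2*, on chromosome 14 from 18204054 to 18239127, minus strand, had 1384 (untreated) and 1262 (butyrate) in the 48 h pair, then 1656 and 1717 in the 72 h pair. Both 72 h libraries were above both 48 h libraries, and the butyrate differences were small, at −0.13 (−0.24 to −0.02) and 0.05 (−0.05 to 0.15).

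*Nr1d1* overlaps *Thra*, the thyroid hormone receptor alpha gene on the opposite strand, and the annotation gives 263 exon bases to both, 8.55% of the exon bases of *Nr1d1*. The sources used here do not say whether the libraries kept strand, and of 3044 words of 31 bases in *Nr1d1* transcripts, 239 were also in *Thra* transcripts on either strand. *Thra* had normalised counts of 694 (untreated) and 1013 (butyrate) in the 48 h pair, then 797 and 1029 in the 72 h pair. Its butyrate differences were 0.54 (0.41 to 0.68) and 0.37 (0.23 to 0.51), the same sign as for *Nr1d1*, whereas its difference between the untreated libraries was 0.20 beside 0.85 for *Nr1d1*. The part of shared reads in the *Nr1d1* values was not tested. *Nr1d2* shared 9.51% of its words with AC170187.1, which was listed with 0 counts in each of the 4 libraries.

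*Dbp*, on chromosome 7 from 45705088 to 45710203, plus strand, was the member with the fewest counts. Its normalised counts were 192 (untreated) and 261 (butyrate) in the 48 h pair, then 141 and 190.1 in the 72 h pair. The butyrate library was the higher one at each time, by 0.44 (0.17 to 0.72) and 0.43 (0.10 to 0.76), and the untreated library at 48 h and the butyrate library at 72 h could not be told apart. *Dbp* overlaps *Sphk2*, a sphingosine kinase gene on the opposite strand, over 539 exon bases, 18.0% of those of *Dbp*. *Sphk2* differed in the other direction, by −0.43 (−0.55 to −0.30) at 48 h and −0.19 (−0.31 to −0.07) at 72 h. Of the other members, *Cry2* shared 4.11% of its words with other genes and *Per3* 0.652%, and *Per1*, *Per2* and *Cry1* shared none.

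From 48 h to 72 h without butyrate, *Nr1d1* and *Arntl* differed by at least 1.5-fold, both higher at 72 h, by 0.85 (0.71 to 1.00) and 0.68 (0.48 to 0.88). These are 2 of 10 members beside 12.0% of all genes and 6.39% of those with a mean of 50 or more (6.82% of all genes were higher and 5.17% lower). The interval lay above 0 for 4 members, against 22.4% of all genes, and below 0 for 4, against 20.2%. The members lower at 72 h were *Per3* by −0.52, *Per2* by −0.45, *Dbp* by −0.44 and *Cry1* by −0.33. By sign alone, 5 members were higher at 72 h (50.5% of all genes) and 5 lower (49.4%). The median over the members was 0.07, whereas the median of the absolute differences was 0.42 beside 0.17 over all genes. In the other comparisons this absolute median was 0.36 beside 0.27 (butyrate, 48 h), 0.18 beside 0.21 (butyrate, 72 h) and 0.32 beside 0.28 (over time with butyrate), so that the members were below all genes for butyrate at 72 h.

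With butyrate, 7 members were higher at 72 h than at 48 h, all with intervals above 0, against 30.0% of all genes. The interval lay below 0 for *Per2* (−0.34) and *Dbp* (−0.46), 2 of 10 beside 31.4% of all genes, and with *Per3* (−0.17) 3 members were below 0, as were 51.3% of all genes. No member reached 1.5-fold, which 21.6% of all genes did (9.66% higher and 11.9% lower, or 15.1% in either direction at a mean of 50 or more), and the largest difference was that of *Cry2*, 0.57 (0.38 to 0.76). *Cry1* went opposite ways over time, −0.33 (−0.51 to −0.15) without butyrate and 0.31 (0.11 to 0.51) with it. *Per2* and *Dbp* were lower, and *Cry2*, *Arntl*, *Nr1d1* and *Nr1d2* were higher, at 72 h both with and without butyrate.

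**Figure D3:**
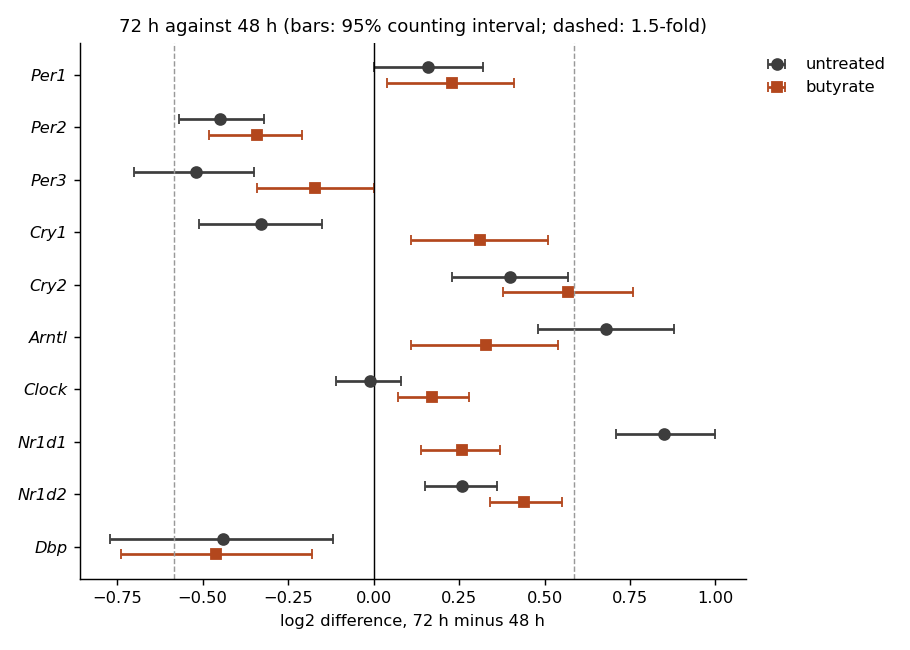
Log2 difference, 72 h minus 48 h, of each clock gene in untreated (circles) and butyrate-treated (squares) organoids, with 95% counting intervals and dashed lines at 1.5-fold. *Nr1d1* (0.85) and *Arntl* (0.68) pass the dashed line without butyrate, and no gene does with it.

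Over the 4 libraries, the median span of the members between their highest and lowest library was 0.67 on the log2 scale. It was 0.50 over all 13979 genes and 0.42 over the 6901 genes whose mean lay between those of *Dbp* (196) and *Clock* (1721). The butyrate difference itself differed between 48 h and 72 h beyond counting error in 6 of 10 members, beside 48.8% of all genes, not matched on counts. These were *Per3*, *Cry1*, *Clock* and *Nr1d2*, with a higher difference at 72 h, and *Arntl* and *Nr1d1*, with a lower one. None of the 10 was beyond counting error in opposite directions at the 2 times, which 9.86% of all genes were.

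Ratios of counts within a library do not depend on the scaling between libraries. The log2 ratio of *Dbp*, an output of the loop, to *Arntl*, an activator gene, was −0.86 (untreated) and −0.30 (butyrate) in the 48 h pair, then −1.99 and −1.08 in the 72 h pair. It was higher with butyrate by 0.57 (0.22 to 0.91) at 48 h and by 0.90 (0.53 to 1.27) at 72 h, and lower at 72 h by −1.12 (−1.49 to −0.76) without butyrate. The 4 libraries were thus spread over more than any single member was. The log2 ratio of *Nr1d1* to *Arntl* was 0.80 (untreated) and 1.69 (butyrate) in the 48 h pair, then 0.97 and 1.61 in the 72 h pair. This ratio was split by treatment, with butyrate differences of 0.89 (0.63 to 1.14) and 0.64 (0.42 to 0.86), while its differences over time, 0.17 (−0.07 to 0.42) and −0.07 (−0.31 to 0.17), held 0. The log2 ratio of *Per2* to *Cry1* was 1.08 (untreated) and 1.48 (butyrate) in the 48 h pair, then 0.96 and 0.83 in the 72 h pair. Here the butyrate library at 48 h was the highest, and the butyrate difference at 72 h was −0.13 (−0.37 to 0.10).

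**Figure D4:**
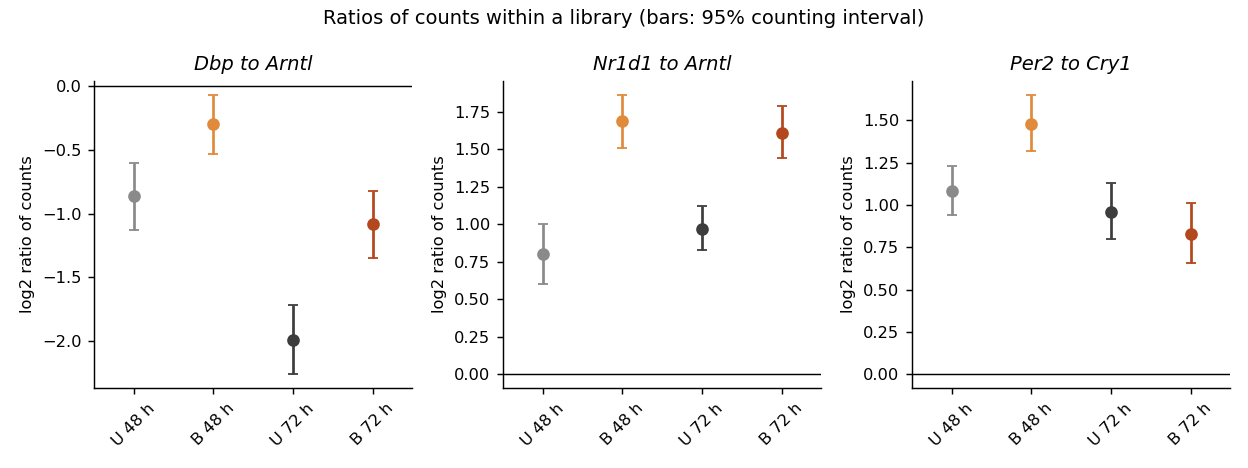
Log2 ratio of the counts of a pair of clock genes within each library, untreated (U) and butyrate (B) at 48 h and 72 h; points are single libraries, bars 95% counting intervals and the line equal counts. The ratio of *Nr1d1* to *Arntl* is 1.69 and 1.61 in the butyrate libraries and 0.80 and 0.97 in the untreated ones.

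Levels were compared between genes as TPM, computed from the counts and the exon length of each gene. *Nr1d1* had the highest mean level over the 4 libraries, 34.0 TPM (21.5 to 42.7), followed by *Nr1d2* with 29.3 (25.4 to 33.9). *Per2* followed with 17.9 (14.5 to 23.0), *Cry1* with 14.7, *Clock* with 13.2, *Per1* with 10.7 and *Cry2* with 8.68. At the low end were *Dbp* with 6.97, *Per3* with 6.13 and *Arntl* with 5.68 (4.65 to 7.33). The ranges of all neighbours in this order overlapped except those of *Nr1d2* and *Per2*. This order of means did not hold in every library, as *Nr1d1* (21.5) was below *Per2* (23.0) in the untreated library at 48 h, and *Arntl* (7.33) was above *Per3* (4.73) and *Dbp* (4.65) in the untreated library at 72 h. With the longest transcript in place of all exons, *Nr1d1* and *Nr1d2* stayed first and *Per3* became the lowest. *Clock* then moved from rank 5 to rank 3, and *Arntl*, with a mean of 9.03, was at rank 9.

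The wider clock was followed through 32 further genes, listed by role, of which 30 passed the count filter. At 48 h 4 of the 30 were at least 1.5-fold higher with butyrate, *Usp2*, *Fkbp5*, *Fbxl21* and *Bhlhe41*, beside 13.1% of all genes. The intervals of *Fbxl21* (−0.13 to 1.75, from 16 and 31 counts) and *Bhlhe41* (−0.86 to 2.42, from 6 and 11 counts) held 0. At 72 h 2 were higher, *Usp2* and *Arntl2*, beside 9.50%, and 1, *Sgk1*, was lower, beside 8.53%. *Usp2*, a deubiquitinase whose transcript cycles in many tissues, had 31 (untreated) and 214 (butyrate) counts in the 48 h pair, then 28 and 81 in the 72 h pair. Its differences of 2.58 (2.07 to 3.21) and 1.63 (1.03 to 2.34) were the widest of the wider list at both times.

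By role, the activator paralogs *Arntl2* and *Npas2* differed from *Arntl* and *Clock*. *Arntl2* had normalised counts of 276 (untreated) and 391 (butyrate) in the 48 h pair, then 230.1 and 431 in the 72 h pair, so that it was higher with butyrate by 0.50 (0.28 to 0.73) and 0.90 (0.67 to 1.14), beside −0.12 (−0.34 to 0.10) and −0.47 (−0.67 to −0.28) for *Arntl*. *Npas2*, which can stand in for *Clock*, differed by −0.07 (−0.17 to 0.03) and 0.20 (0.10 to 0.31). Of the repressors outside the members, *Ciart* differed by −0.03 and 0.12 and *Bhlhe40* by 0.01 and −0.06.

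Among the nuclear receptors outside the members, *Rora*, whose product competes with the REV-ERB proteins, had 28 to 49 counts and *Rorb*, which did not pass the filter, 1 to 14. *Tef*, a D-box factor closely related to *Dbp*, had normalised counts of 1435 (untreated) and 1859 (butyrate) in the 48 h pair, then 1068 and 1371 in the 72 h pair. Its butyrate differences were 0.37 (0.28 to 0.47) and 0.36 (0.24 to 0.48), beside 0.44 and 0.43 for *Dbp*, and its differences over time were −0.42 and −0.44, beside −0.44 and −0.46. *Nfil3*, a repressor at D-boxes, was higher at 72 h without butyrate by 0.71 (0.43 to 0.99) and differed with butyrate by 0.15 (−0.14 to 0.45) and −0.23 (−0.49 to 0.02). *Hlf*, the remaining gene of this group, had at most 11 counts.

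The kinases, ligases and co-repressors that act on clock proteins mostly stayed within 1.5-fold. Of 12, all passed the filter, and 2 (*Usp2* and *Fbxl21*) were at least 1.5-fold higher at 48 h, beside 13.1% of all genes, and 1 (*Usp2*) at 72 h, beside 9.50%. *Csnk1e*, a kinase of PER proteins, was higher with butyrate by 0.29 (0.19 to 0.39) and 0.38 (0.28 to 0.48). *Hdac3*, the deacetylase recruited by REV-ERB proteins, was higher by 0.30 and 0.25. The clock-controlled genes *Wee1*, *Nampt* and *Por* differed by −0.26, −0.02 and 0.50 at 48 h and by −0.01, −0.27 and −0.03 at 72 h. Of 6 genes that respond to glucocorticoids or cAMP, as *Per1* does, 1 (*Fkbp5*) was at least 1.5-fold higher at 48 h, beside 13.1% of all genes, and 1 (*Sgk1*) at least 1.5-fold lower at 72 h, beside 8.53%. The members of this group differed in sign at 48 h, from −0.47 (−0.77 to −0.18) for *Tsc22d3* to 0.77 for *Fkbp5*.

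**Figure D5:**
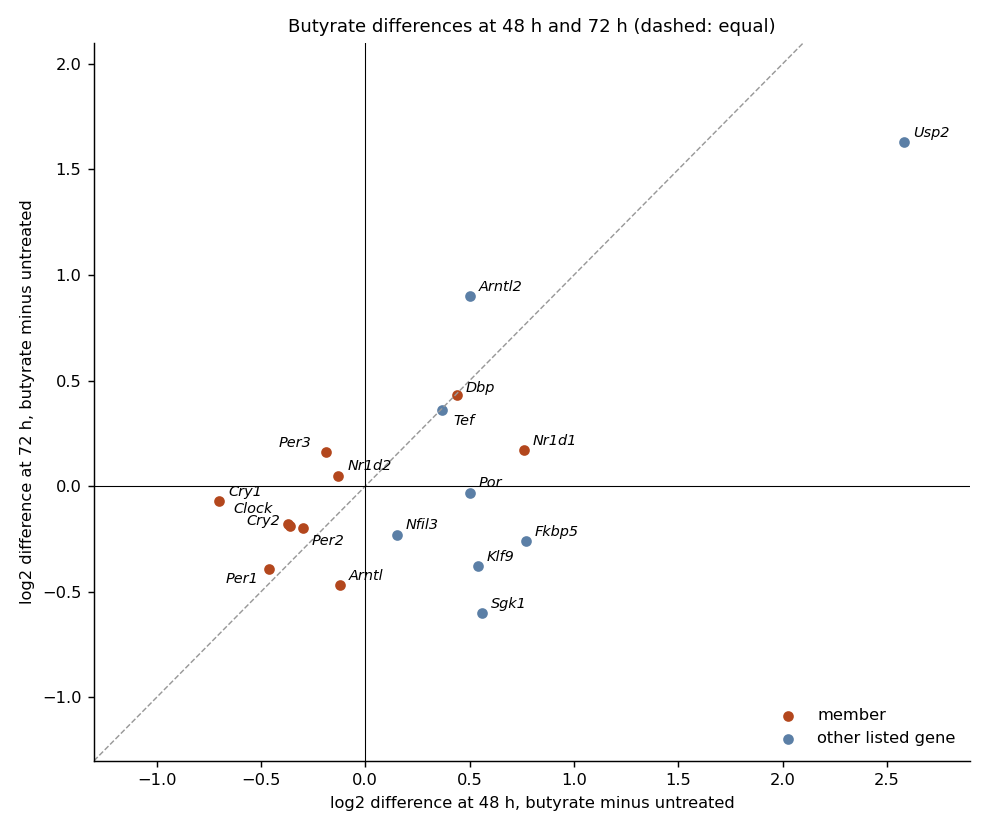
Log2 difference, butyrate minus untreated, at 48 h (horizontal) and 72 h (vertical) of the 10 clock genes (red) and of 8 other listed genes named in the text (blue); the dashed line marks equal differences. *Dbp* and *Tef* lie next to the dashed line, *Usp2* lies far to the upper right (2.58 and 1.63), and *Fkbp5*, *Sgk1* and *Klf9* lie to the right of 0 and below it.

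Genes with profiles like those of *Dbp* and *Arntl* were sought among the 10789 genes whose mean was 100 normalised counts or more, by the Euclidean distance between log2 levels centred over the 4 libraries. Outside the lists, *Nfe2l3* (0.0366), *Tmem185b* (0.0564), *Lancl1* (0.0669), *Saysd1* (0.0742) and *Rgs11* (0.0779) were nearest to *Dbp*. *Tef* was at 0.0695, the 4th nearest of all. Nearest to *Arntl* were *Bcar3* (0.0398), *Arl4a* (0.0597), *Trim16* (0.0769), *Atg14* (0.0828) and *Efnb2* (0.0913). A profile over 4 libraries is met by many genes, and the distances describe these libraries only.

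Markers of the cell types in the cultures moved along with treatment and time, and in bulk RNA fewer cells of a type and less RNA per cell cannot be told apart. The 7 epithelial markers, among them *Epcam* and *Cdx2*, were all present, with summed normalised counts between 135501 and 152799. The 8 colonocyte markers summed to 41270.2 (untreated) and 73155 (butyrate) in the 48 h pair, then 59245 and 36795 in the 72 h pair, with 8 of 8 higher with butyrate at 48 h and 0 of 8 at 72 h. The 5 stem cell markers summed to 22656 (untreated) and 17471 (butyrate) in the 48 h pair, then 16587 and 25783 in the 72 h pair. Their median butyrate difference was only −0.14 at 48 h, with 1 of 5 above 0, and 0.62 at 72 h, with 5 of 5 above 0. In the 48 h pair *Nr1d1* and the colonocyte sum were both higher with butyrate. In the 72 h pair *Nr1d1* was higher and the colonocyte sum lower, and a link between them was not tested. The 8 cycling markers summed to between 30766 and 40492, the 8 goblet markers to between 90757 and 167126, the 8 enteroendocrine markers to between 5592 and 10111 and the 5 tuft markers to between 108.0 and 350.5. At 72 h the median butyrate difference was −0.83 for goblet, −0.80 for enteroendocrine and −1.68 for tuft markers, with 1 of 8, 0 of 8 and 0 of the 3 that passed the filter above 0. At 48 h these medians were −0.18, 0.03 and −0.24. Of 8 immune markers, 2 passed the filter, and their sum of 191 to 1231 was mostly *Cd68*, with 128 (untreated) and 1309 (butyrate) counts in the 48 h pair, then 172 and 420 in the 72 h pair. Of 8 stromal and endothelial markers, 3 passed the filter, *Col3a1* was at 0 in all 4 libraries, and the sum was between 138.0 and 194.5. The part of any of these cell types in the clock gene differences was not tested.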

How the data were processed

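Gene expression was measured by poly-A RNA-seq in 4 libraries, 1 per condition. The authors deposited whole-number counts per gene, made with kallisto 0.44.0 (build GRCm38.p6, per the submitters' processing notes) and summed to genes with tximport, so that they are rounded estimates without normalisation. The study's filter, above 10 counts in 2 or more libraries, was applied. Size factors came from DESeq2 1.42.0 and the alternative TMM factors from edgeR 4.0.16 in R 4.3.3, and the rest was done with scipy 1.17.1, pandas 2.3.3, numpy 2.4.6 and matplotlib 3.10.9 under Python 3.11.15. No condition had replicates, so pairs of libraries were compared without a test, an additive edgeR fit of treatment and time was added after the data were seen, and a gene was counted as different from 1.5-fold on. Intervals were exact Clopper-Pearson intervals on a pair of counts at the 95% level, or Poisson intervals for 1 library, and a normal approximation for differences of differences and of ratios. Positions, exon lengths and transcript words of 31 bases were taken from GENCODE M21 (GRCm38), with an exon length for 35907 of 36144 names, and promoter sequences from RefSeq. Steps were tested on simulated counts with Poisson error only. With 13979 genes, 200 of them (of mean 100 or more) changed 2-fold, 198 were recovered at 48 h and 200 at 72 h. Of the intervals, 95.7% and 95.6% held the true value. The simulation held no spread between cultures and no PCR copies, so it checks the calculation and not the error of these libraries.

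The members were given by name, and the members and gene lists were chosen with earlier results of these data known. The genes named are the members, genes of the fixed lists that passed the filter, genes sharing exons or transcript words with a member, and the 5 genes nearest to *Dbp* and to *Arntl*. *Rorb*, *Hlf*, AC170187.1, *Cd68*, *Epcam*, *Cdx2* and *Col3a1* were singled out after their values were seen. The alternatives were TMM and total count scaling, size factors without mitochondrial genes, a pseudocount of 5, thinning to the smallest library, other gene filters, a 2-fold limit and the longest transcript as length. Some items of the gene lists are not reported here.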

Additional observations from a re-analysis of the deposited data

Results flagged for a closer look

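The 40 genes followed were the 10 members and 30 genes of the wider list. Of these, 4 differed with butyrate one way at 48 h and the other way at 72 h, each beyond counting error. This share was near the 9.86% of all genes. The difference between times was not tested, since each condition has 1 library. *Fkbp5*, a glucocorticoid-responsive gene, differed by 0.77 at 48 h and −0.26 at 72 h, a difference between times of −1.03. *Sgk1*, also glucocorticoid-responsive, differed by 0.56 and −0.60, a difference of −1.16, and *Klf9*, also of that list, by 0.54 and −0.38, a difference of −0.92. The other 3 genes of the list did not do so: *Tsc22d3* differed by −0.47 and −0.23, *Crem* by −0.15 and −0.00 and *Sik1* by 0.20 and 0.23. *Csnk2b*, a subunit of casein kinase 2, differed by 0.12 and −0.11, a difference of −0.23. None of the 10 members was among them. The median butyrate difference of the colonocyte markers was 0.50 at the first time and −0.44 at the second, and their part in these values was not tested.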

How the results depend on the processing

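The labels give no replicate numbers to pair by. Pairing butyrate and untreated libraries by time is the additive fit of treatment and time (edgeR's quasi-likelihood test), in which the lowest adjusted p of a member was 0.214 for treatment (*Nr1d1*, 0.46) and 0.296 for time (*Nr1d1*, 0.55). Across 7 other settings of scaling, pseudocount, depth and filter, all 280 recomputed member differences and all 12 thinned ratios stayed within the counting intervals of the reported values. All 28 medians over the members stayed between the median of the members' lower limits and the median of their upper limits. That band is not a counting interval of the median, and it says little of how stable the median is. *Nr1d1* and *Cry1* at 48 h, and *Nr1d1* and *Arntl* over time without butyrate, passed 1.5-fold in all 8 settings, and *Per3* over time without butyrate did so in 1, at −0.60 with total count scaling. Of 840 recomputed differences of the other listed genes, which were added after seeing the data, 8 moved outside their intervals, all with total count scaling, and none of the called ones changed sign. Counts over all genes depended on the filter and on the fold. At 48 h, 3081 genes differed at least 1.5-fold, 7620 without a filter, 1768 with a mean count of at least 50 and 1400 at 2-fold. At 72 h the count was 2520, and 7008, 1278 and 1162 in the same order. Over time it was 1676 without butyrate, and 5947, 746 and 627, and 3014 with butyrate, and 7705, 1750 and 1205. The longest transcript as length moved the mean level of 5 of 10 members outside its range over the libraries, with *Arntl* at 9.03, *Per3* at 8.27, *Cry2* at 11.6, *Clock* at 15.7 and *Dbp* at 9.56. The depth limits *Dbp* most, whose 143 counts in the untreated library at 72 h gave the widest member intervals.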
